A study of Mus musculus with 15 samples.

Results

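The mouse mitochondrial genome encodes 37 genes, and all 37 had a row in the count table of 47069 genes, found by a symbol that starts with mt-. They are 13 mRNAs, 2 rRNAs and 22 tRNAs. Of these, 31 had at least 1 count in some library and 22 passed the filter on low counts in every comparison, made up of the 13 mRNAs, the 2 rRNAs and 7 tRNAs. Left ventricles of C57BL/6 mice were measured by stranded mRNA sequencing in 15 libraries, 5 per group. The PBS group had a myocardial infarct and received saline in the heart muscle 7 days later. The rHCI group had the same infarct and received a hydrogel, named rHCI in the labels, on the same day. Both were harvested 2 days after the injection, and hearts were perfused with saline before the tissue was frozen. The Sham group had a sham operation and no treatment, and was sampled at 10 weeks of age as the age-matched group. Against Sham, the infarct and the injection cannot be told apart. The design text calls the 5 libraries of a group biological replicates, without saying how animals map to libraries, and p-values measure the spread between those libraries.

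Mitochondrial DNA is transcribed from both strands as long precursor RNAs. The tRNAs sit between most of the rRNAs and mRNAs and are cut out by dedicated nucleases, which frees the neighbouring transcripts. All 13 mRNAs encode subunits of respiratory complexes I, III, IV and V, whose other subunits come from nuclear genes, while the rRNAs and tRNAs serve the ribosome inside the organelle. The polymerase, the transcription factors and the RNA processing enzymes are all nuclear-encoded and imported. In heart muscle, which depends on oxidative metabolism, mitochondria are abundant and their mRNAs are among the most abundant in the tissue. Most of the mRNAs carry short poly(A) tails. Mature tRNAs are short and lack such tails, so libraries made from mRNA capture them poorly.

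A stretch of mitochondrial DNA is repeated in the nuclear genome, and this bears on which members can be measured. GRCm38 chromosome 1 carries 7 annotated pseudogenes on the minus strand between chr1:24611535-24616197, a span of 4663 bases. Their sequence matches the mitochondrial genome from position 6390 to 11042. The copies of mt-Co2 (Gm28661), mt-Atp6 (Gm10925), mt-Co3 (Gm28437), mt-Nd4l (Gm10222) and the first 876 of 1378 bases of mt-Nd4 (Gm28439) were 100% identical to their members. The copy of the last 483 bases of mt-Co1 (Gm29216) differed by A1066T and the copy of mt-Nd3 (Gm28438) by T3C, with positions counted from 1 at the member's first base and the member's base given first. The windows below, from GENCODE M21 transcripts, show the member above its copy, with the base that differs in capitals, because a read from such a window cannot be assigned to 1 place, or only by 1 base.
mt-Co1 (chrM:6390-6449, plus strand): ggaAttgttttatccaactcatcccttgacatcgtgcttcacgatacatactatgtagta
Gm29216 (chr1:24616129-24616188, minus strand): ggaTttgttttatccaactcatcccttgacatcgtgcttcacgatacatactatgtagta
mt-Nd3 (chrM:9459-9518, plus strand): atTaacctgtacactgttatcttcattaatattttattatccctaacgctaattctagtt
Gm28438 (chr1:24613060-24613119, minus strand): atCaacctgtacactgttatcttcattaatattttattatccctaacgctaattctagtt
mt-Co2 (chrM:7013-7072, plus strand): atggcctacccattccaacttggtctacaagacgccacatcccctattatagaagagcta
Gm28661 (chr1:24615506-24615565, minus strand): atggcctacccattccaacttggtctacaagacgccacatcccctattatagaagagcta
mt-Nd4l (chrM:9877-9936, plus strand): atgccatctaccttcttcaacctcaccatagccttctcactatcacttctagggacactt
Gm10222 (chr1:24612641-24612700, minus strand): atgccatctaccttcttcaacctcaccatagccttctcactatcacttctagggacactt

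Members also share bases with each other inside this stretch. The 2 mRNA pairs with the longest overlaps inside it are shown because a read over the capitals lies in both genes of the pair. Outside it, mt-Nd5 and mt-Nd6 share 14 bases on opposite strands. mt-Atp8 and mt-Atp6, subunits of ATP synthase, overlap by 43 bases, and mt-Nd4l and mt-Nd4, subunits of complex I, by 7 bases.
mt-Atp8 and mt-Atp6 (chrM:7907-7989, plus strand): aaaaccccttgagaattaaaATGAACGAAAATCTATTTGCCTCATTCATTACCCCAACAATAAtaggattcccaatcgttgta
mt-Nd4l and mt-Nd4 (chrM:10147-10193, plus strand): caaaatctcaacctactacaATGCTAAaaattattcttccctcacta

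Total counts were 32978702 to 103356830 per library. All 10 cardiomyocyte markers examined were detected. A number in the library descriptions, called the run number here, was shared by 12 libraries. PBS 6 had another, and Sham 19 and rHCI 1 had a common one of their own.

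The share of all counts that fell on the 37 genes was lower in every infarcted heart than in every Sham heart. It was 15.3%, 17.2%, 17.1%, 16.3% and 16.3% in Sham 16 to 20 (16.4% ± 0.769, SD, n = 5). Libraries PBS 2, 6, 9, 12 and 14 had 10.3%, 11.96%, 10.97%, 10.1% and 12.5% (11.2% ± 1.04). Libraries rHCI 1, 3, 7, 11 and 13 had 12.3%, 9.77%, 11.6%, 12.9% and 14.5% (12.2% ± 1.73). The highest PBS library and the highest rHCI library lay below the lowest Sham library, whereas the rHCI range enclosed the PBS range from 9.77% to 14.5%. Mean differences were −5.27 percentage points for PBS minus Sham, −4.23 for rHCI minus Sham and 1.04 for rHCI minus PBS. Without rHCI 13 the last was 0.469, without rHCI 3 it was 1.65, and without rHCI 1 and rHCI 13 together it was 0.257. Within the 12 libraries of the shared run number the 3 differences were −5.51, −4.29 and 1.22. Set against nuclear counts instead of all counts, the members had 19.7 ± 1.10 counts per 100 nuclear counts in Sham, 12.6 ± 1.33 in PBS and 13.9 ± 2.24 in rHCI hearts. Libraries made from bulk tissue cannot tell fewer cells of a type from less RNA per cell, and this holds for all comparisons with Sham that follow.

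**Figure D1:**
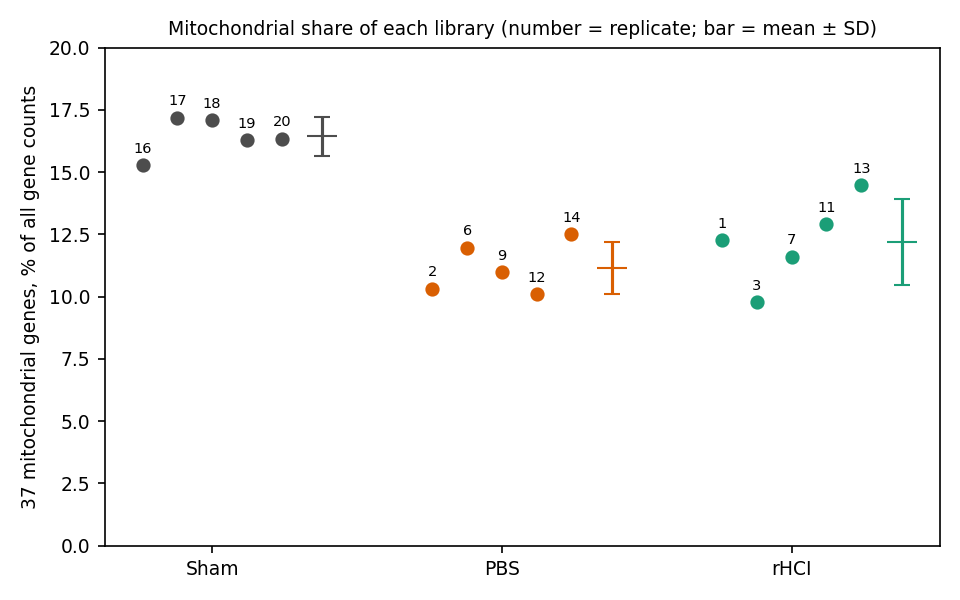
Share of all gene counts on the 37 mitochondrial genes (y axis, percent) in each library of the Sham, PBS and rHCI groups, with replicate numbers above the points and the group mean ± SD (n = 5) as a bar beside them. All Sham libraries, from 15.3% upward, sit above all infarcted libraries, of which rHCI 13 at 14.5% is the highest.

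Within the mitochondrial counts the mRNAs took most, 93.3% ± 0.773 in Sham, 94.8% ± 0.563 in PBS and 94.5% ± 0.603 in rHCI hearts. mt-Co1 alone, the catalytic subunit of complex IV (ENSMUSG00000064351; GRCm38 chromosome M, 5328 to 6872), took 33.9% to 36.5% of mitochondrial counts in the 15 libraries. Levels of different genes were compared as CPM (counts relative to the library total, here without TMM factors) per kilobase of gene length. On this scale mt-Co1 came first with a Sham mean of 37059 ± 2399, ahead of mt-Cytb of complex III with 23110 ± 1184 and of the complex I genes mt-Nd1 (18718 ± 746), mt-Nd2 (14064 ± 684), mt-Nd5 (13128 ± 436) and mt-Nd4 (9103 ± 549). The 16S and 12S rRNAs of the mitochondrial ribosome followed, mt-Rnr2 with 5274 ± 726 and mt-Rnr1 with 2741 ± 300. mt-Nd6, the only mRNA gene whose sense strand is the opposite one, came next with 419 ± 57.1. How well libraries made from mRNA capture the rRNAs and mt-Nd6 was not tested, so these places hold for captured RNA only. The same limit holds for the rRNA values that follow. The last 6 were mt-Co3 (337 ± 12.8), mt-Co2 (148 ± 19.6), mt-Atp6 (73.9 ± 8.20), mt-Atp8 (51.5 ± 6.51), mt-Nd3 (44.3 ± 4.23) and mt-Nd4l (21.96 ± 3.69).

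This order was the same in all 15 libraries except for mt-Atp8 and mt-Nd3, where mt-Atp8 was the higher in 13. The ranges of neighbours did not always separate. mt-Nd2 and mt-Nd5 overlapped in each of the 3 groups, with a ratio within a library of 1.04 to 1.13. mt-Atp8 overlapped mt-Nd3 in each group as well, and overlapped mt-Atp6 in the PBS and rHCI groups. In the rHCI group alone 4 more pairs overlapped: mt-Cytb with mt-Nd1, mt-Nd1 with mt-Nd2, mt-Nd5 with mt-Nd4, and mt-Nd6 with mt-Co3. The other neighbours were apart in all groups, from mt-Co1 over mt-Cytb (ratio 1.56 to 1.67) to mt-Rnr1 over mt-Nd6 (5.29 to 8.02).

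The lowest 6 mRNAs were exactly the 6 that lie wholly inside the stretch repeated on chromosome 1. They had 11.998 to 357 on the same scale over the 15 libraries and together 0.262% to 0.349% of the mRNA counts. The 6 mRNAs of the same sense strand that lie at least partly outside it, mt-Nd1, mt-Nd2, mt-Co1, mt-Nd4, mt-Nd5 and mt-Cytb, had 5451 to 39189 on that scale and 99.5% to 99.6% of the mRNA counts. mt-Co2 and mt-Co3 lie between mt-Co1 and mt-Nd4 on the same precursor, at chromosome M, 7013 to 7696 and 8607 to 9390. The nuclear copies had counts of their own. Of the counts of each pair, Gm28438 took 63.3% to 74.5% beside mt-Nd3, Gm10925 took 55.2% to 57.8% beside mt-Atp6 and Gm10222 took 38.8% to 48.9% beside mt-Nd4l. Gm28661 took 29.7% to 33.4% beside mt-Co2 and Gm28437 18.9% to 25.2% beside mt-Co3, whereas Gm29216 took at most 0.107% beside mt-Co1 and Gm28439 at most 0.323% beside mt-Nd4. Less similar annotated copies had counts as well. On chromosome 2, Gm13340 matched the whole of mt-Co1 at 97.6% identity and had 1761 to 7531 counts per library, Gm13341 matched mt-Co2 at 95.9% (667 to 3071 counts) and Gm13339 the last 510 bases of mt-Nd2 at 96.7% (207 to 945 counts). Gm4076 on chromosome 13 matched part of mt-Nd5 at 95.2% (126 to 607 counts). How reads that fit 2 places were counted is not given in the sources used here, so the levels of these 6 mRNAs, of mt-Co1 and of mt-Nd4 are uncertain and the part of the copy in them was not tested. mt-Atp8 lies inside the stretch too. Gm10925 covers the 43 bases it shares with mt-Atp6, and the nuclear sequence opposite its other bases was not examined. Divided by the 502 bases of mt-Nd4 that have no near-identical copy, its Sham level was 24988 and second only to mt-Co1, whose own value over 1062 such bases was 53914. The 7 chromosome 1 copies fell with the members, by log2 fold changes of −1.09 (Gm28438) to −0.78 (Gm10925) in PBS against Sham. On Sham means, adding their counts to the members exchanged mt-Co3 with mt-Nd6 and mt-Nd3 with mt-Atp8 and changed no other rank. The first exchange was narrow, with mt-Co3 at 429 and mt-Nd6 at 419, where mt-Nd6 ran from 360 to 505 in the Sham libraries.

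**Figure D2:**
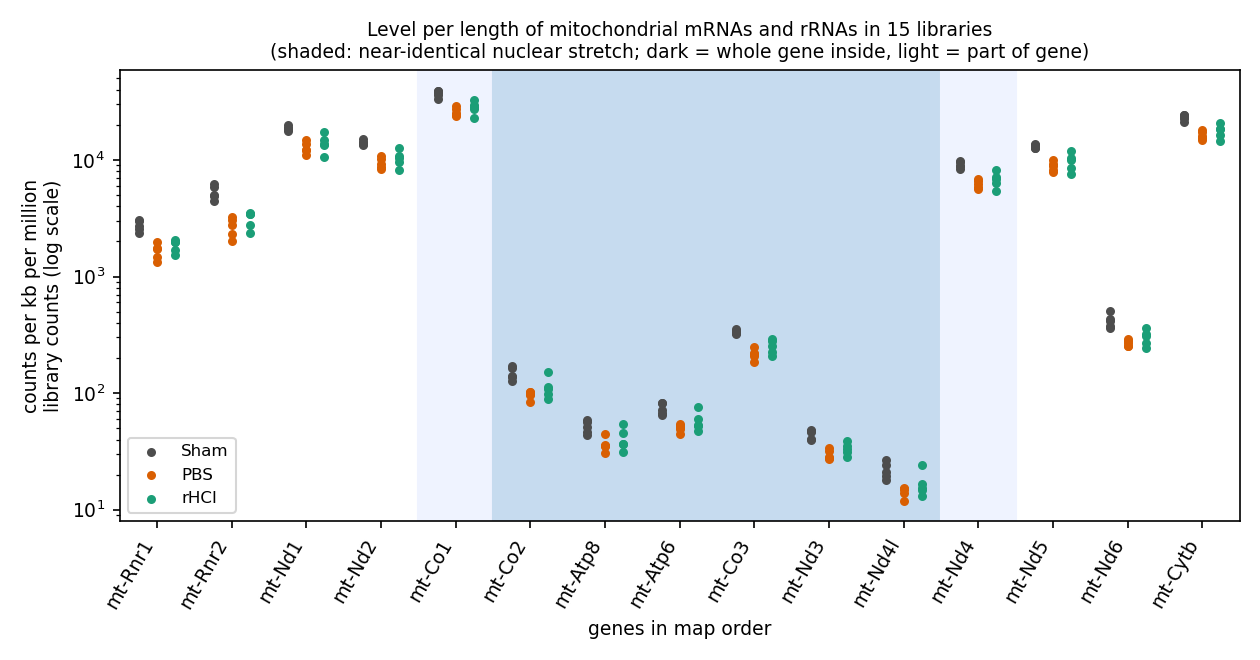
Level per gene length (CPM per kilobase, log scale) for the 13 mRNAs and 2 rRNAs in map order, with 1 point per library coloured by group. Genes on dark shading lie wholly inside the stretch repeated on chromosome 1 and reach at most 357, while mt-Co1 and mt-Nd4 on light shading lie partly in it and stand with the genes outside, of which mt-Nd6 of the opposite strand is the lowest.

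Saline-injected infarcted hearts were compared with Sham hearts first. Of the 22 members tested, 21 were lower in PBS hearts (edgeR quasi-likelihood test, Benjamini-Hochberg adjusted over all genes, threshold 0.05) and 0 were higher. Of all 16207 genes tested 71.4% were called, 34.9% lower and 36.5% higher. For the same 21 the 2 groups did not overlap, which held for 27.2% of all genes in that direction. The median log2 fold change of the 22 was −0.84, and that of all genes −0.01. With scaling by library totals in place of TMM factors the median of all genes moved from −0.01 to 0.27 and the split of all calls from 5921 higher and 5653 lower to 8934 higher and 2614 lower. On that scale the same test still placed 21 members lower, and their median was −0.57.

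All 13 mRNAs fell, and by similar amounts. The log2 fold changes ran from −0.91 ± 0.08 (SE) for mt-Co3 to −0.77 ± 0.10 for mt-Cytb, with adjusted p from 3.00e-07 to 3.77e-05. mt-Co1 was at 58548, 65649, 69186, 65127 and 63164 CPM, here scaled by TMM factors, in Sham 16 to 20. It was at 33229, 40609, 36087, 33293 and 43633 CPM in PBS 2, 6, 9, 12 and 14. Every PBS library was below every Sham library, and the log2 fold change was −0.79 ± 0.11 (adjusted p = 3.77e-05). mt-Nd6, a complex I subunit and the one mRNA from the opposite strand (ENSMUSG00000064368; chromosome M, 13552 to 14070, minus strand), was at 211, 245, 300, 244 and 222 CPM in Sham 16 to 20. In PBS 2, 6, 9, 12 and 14 it was at 117, 143, 132, 120 and 137 CPM. Its log2 fold change of −0.91 ± 0.09 (adjusted p = 9.52e-07) was the largest fall of the 7 mitochondrial complex I genes (median −0.84). Among the mRNAs of the other strand only mt-Co3, which lies inside the repeated stretch, fell as far.

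Both rRNAs fell. mt-Rnr2, the 16S rRNA (ENSMUSG00000064339; chromosome M, 1094 to 2675), was at 7998, 8378, 10639, 8785 and 11151 CPM in Sham 16 to 20 and at 2831, 4849, 3992, 3335 and 4681 CPM in PBS 2, 6, 9, 12 and 14. The log2 fold change was −1.26 ± 0.15 (adjusted p = 5.88e-06). mt-Rnr1, the 12S rRNA (ENSMUSG00000064337; chromosome M, 70 to 1024), was at 2540, 2662, 3343, 2903 and 3279 CPM in Sham 16 to 20 and at 1140, 1788, 1500, 1284 and 1636 CPM in the PBS libraries. Its log2 fold change was −1.01 ± 0.12 (adjusted p = 6.03e-06). The 2 rRNAs are neighbours on the precursor, separated by a tRNA gene, yet their ratio differed between groups. mt-Rnr2 had 3.03 to 3.40 counts per mt-Rnr1 count in Sham, 2.48 to 2.86 in PBS and 2.58 to 2.88 in rHCI libraries, and neither infarcted group reached the Sham range.

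The tRNAs gave few counts. 6 of the 22, mt-Tn, mt-Tg, mt-Tr, mt-Th, mt-Ts2 and mt-Tl2, had 0 counts in all 15 libraries, and 3 counts of the total of 951393356 allow at most 0.00315 CPM each, counting error only. A further 9 were detected but had no more than 10 counts in any library and were not tested. mt-Tg and mt-Tr lie inside the stretch repeated on chromosome 1, as do mt-Ts1, mt-Td and mt-Tk. The nuclear sequence opposite them was not examined. For mt-Tg and mt-Tr the limit above holds only if reads that fit several places were counted. The tested 7 were mt-Ti, mt-Tq, mt-Tm, mt-Tw, mt-Tt, mt-Tp and mt-Te, and together the 22 tRNA genes had 1004 to 7469 counts per library. The 7 lie in 3 places: mt-Ti, mt-Tq and mt-Tm fill the gap between mt-Nd1 and mt-Nd2, mt-Tw follows mt-Nd2, and mt-Te, mt-Tt and mt-Tp flank mt-Cytb. mt-Ti shares 2 bases with the end of mt-Nd1, and mt-Tw shares 2 bases with the end of mt-Nd2. The sequences of the 6 with more counts are shown with the anticodon in capitals, because their short length and borders with abundant mRNAs bear on what a read at these genes can come from.
mt-Ti, isoleucine (chrM:3706-3774, plus strand): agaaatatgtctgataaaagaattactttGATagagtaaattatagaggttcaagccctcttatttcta
mt-Tq, glutamine (chrM:3772-3842, minus strand): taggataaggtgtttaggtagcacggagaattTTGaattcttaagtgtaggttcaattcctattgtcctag
mt-Tm, methionine (chrM:3845-3913, plus strand): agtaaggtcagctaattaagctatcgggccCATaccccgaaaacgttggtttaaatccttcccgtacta
mt-Tw, tryptophan (chrM:4950-5016, plus strand): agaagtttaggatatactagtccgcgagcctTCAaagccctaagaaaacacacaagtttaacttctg
mt-Tt, threonine (chrM:15289-15355, plus strand): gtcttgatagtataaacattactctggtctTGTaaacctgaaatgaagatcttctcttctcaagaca
mt-Tp, proline (chrM:15356-15422, minus strand): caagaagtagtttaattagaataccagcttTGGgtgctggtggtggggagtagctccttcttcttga

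6 of the 7 tested tRNA rows fell in PBS hearts. mt-Tw, the row with most tRNA counts, was at 41.7, 43.0, 55.0, 45.6 and 51.5 CPM in Sham 16 to 20. In PBS 2, 6, 9, 12 and 14 it was at 14.8, 22.7, 20.2, 14.7 and 19.4 CPM. The log2 fold change was −1.36 ± 0.12 (adjusted p = 3.84e-07). mt-Ti was at 9.75, 11.2, 14.6, 12.1 and 12.5 CPM in Sham 16 to 20 and at 3.34, 5.82, 4.95, 3.89 and 4.98 CPM in the PBS libraries (−1.37 ± 0.14, adjusted p = 1.42e-06). mt-Tt was at 3.79, 4.76, 4.91, 4.18 and 4.92 CPM in Sham and at 1.52, 1.91, 2.16, 1.48 and 1.42 CPM in PBS hearts (−1.41 ± 0.13, adjusted p = 8.48e-07). These 3 were on the plus strand and their groups were wide apart. mt-Tp fell by 1.09 ± 0.12, mt-Tm by 0.83 ± 0.14 and mt-Tq by 0.72 ± 0.12 on the log2 scale. mt-Te, with 6 to 26 counts per library, was not called (−0.50 ± 0.23, adjusted p = 0.0718).

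**Figure D3:**
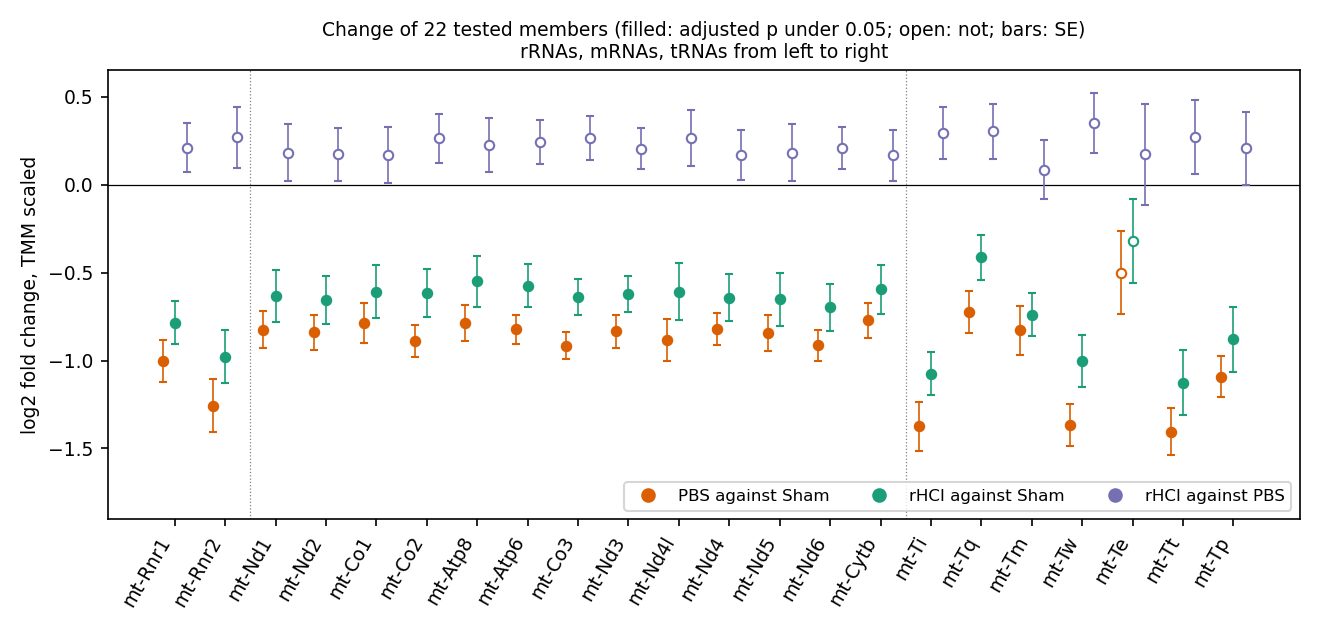
Log2 fold change (y axis) with its standard error for the 22 tested members in 3 comparisons of 5 against 5 libraries, in the order rRNAs, mRNAs, tRNAs, with filled points for adjusted p under 0.05. The changes against Sham lie below 0 for all 22, and those of rHCI against PBS lie above 0 and are open points.

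A second fit took the summed mitochondrial counts of each library as its scale and so asked which members moved away from the others. In PBS against Sham, 5 of 22 members were lower on this scale and 0 higher. Of all genes 86.9% were called, 85.5% higher and 1.39% lower, so the adjustment over all genes hardly raises a p-value here, and the same number of members had an unadjusted p under 0.05. mt-Rnr2 changed by −0.44 ± 0.09 (adjusted p = 0.000194), mt-Ti by −0.56 ± 0.12 (adjusted p = 0.000345), mt-Tw by −0.54 ± 0.10 (adjusted p = 5.94e-05) and mt-Tt by −0.57 ± 0.16 (adjusted p = 0.00251). mt-Rnr1 was at the threshold with −0.18 ± 0.08 (adjusted p = 0.0488). It was no longer called with the geometric mean of the 13 mRNAs as the scale, without a filter on low counts, or in 6 of the 10 fits that left out a library (Sham 18, 19, 20, PBS 2, 12 or 14), where the adjusted p reached 0.140. None of the 13 mRNAs was called. Their changes ran from −0.09 for mt-Co3 (95% interval −0.24 to 0.07) to 0.06 for mt-Cytb (−0.05 to 0.16). mt-Co1 alone holds at least 33.9% of the counts it was set against here.

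In rHCI against Sham hearts 4 of 22 members were lower on this scale and 0 higher, where 80.2% of all genes were called, 1.19% lower and 79% higher. mt-Rnr2 changed by −0.33 ± 0.09 (adjusted p = 0.00444), mt-Ti by −0.41 ± 0.14 (adjusted p = 0.0167), mt-Tw by −0.37 ± 0.11 (adjusted p = 0.00693) and mt-Tt by −0.50 ± 0.15 (adjusted p = 0.00717). In rHCI against PBS hearts 0 of 22 were called, as were 0% of all genes. mt-Ti was not called without rHCI 1 (adjusted p = 0.0530). mt-Rnr1 changed by −0.13 ± 0.09 (adjusted p = 0.171). Both comparisons used the same Sham libraries. As shares, rRNAs made up 6.66% ± 0.771 of mitochondrial counts in Sham, 5.16% ± 0.560 in PBS and 5.49% ± 0.602 in rHCI hearts. PBS did not overlap Sham in this share, while rHCI did. tRNA rows made up 0.0436% ± 0.00225, 0.0325% ± 0.00323 and 0.0354% ± 0.00189, without overlap between either infarcted group and Sham. Counted against the mRNA next to it, mt-Tw had 2.53 to 3.24 counts per 1000 of mt-Nd2 in Sham, 1.78 to 2.30 in PBS and 2.05 to 2.61 in rHCI libraries, the last overlapping Sham.

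**Figure D4:**
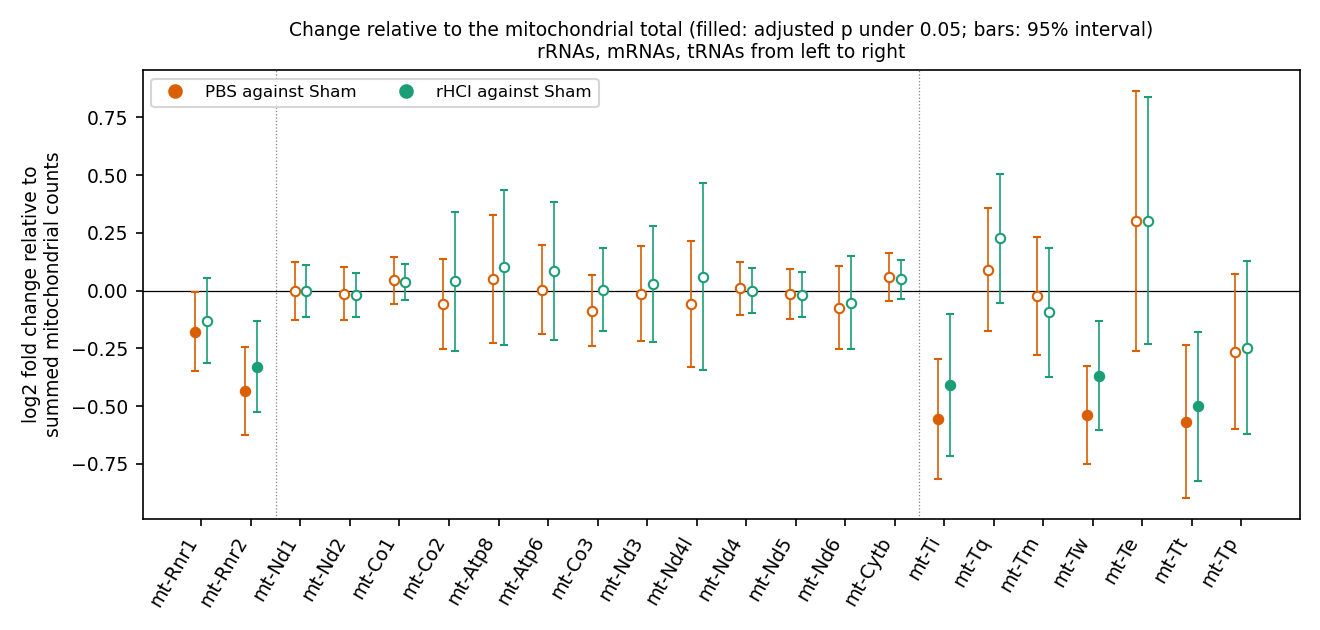
Log2 fold change relative to the summed mitochondrial counts (y axis) with 95% intervals for the 22 tested members in PBS and rHCI against Sham (n = 5 per group), with filled points for adjusted p under 0.05. mt-Rnr2, mt-Ti, mt-Tw and mt-Tt lie below 0 in both comparisons, and the mRNAs lie near 0 with intervals that include it.

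The comparison of rHCI with Sham hearts had the infarct and the hydrogel on 1 side. Of 22 members 21 were lower and 0 higher, where 63.9% of all 16076 genes tested were called, 29.7% lower and 34.1% higher. mt-Te was again not called (−0.32 ± 0.24, adjusted p = 0.261). The median was −0.64, with all genes at 0.00. mRNA changes ran from −0.70 ± 0.13 for mt-Nd6 to −0.55 ± 0.15 for mt-Atp8, and mt-Rnr2 changed by −0.98 ± 0.15, mt-Rnr1 by −0.78 ± 0.12, mt-Tt by −1.13 ± 0.18, mt-Ti by −1.08 ± 0.12 and mt-Tw by −1.003 ± 0.15. The groups did not overlap for 17 members (22.4% of all genes, same direction). mt-Co2, mt-Atp8 and mt-Nd4l overlapped through rHCI 1, mt-Tq through rHCI 13, and mt-Te through more than 1 library. By library totals 18 were lower, where 2128 of all 16076 genes were lower and 8010 higher. The median of all genes was then 0.22 and that of the members −0.43, and mt-Tq, mt-Atp8 and mt-Nd4l were no longer called. Within the shared run number alone 20 were lower, without mt-Tq, where 4166 of all 16095 genes tested were lower and 5056 higher.

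The comparison of rHCI with PBS hearts, both infarcted and injected, asked what the hydrogel changed. No member was called of 22 (edgeR), nor by DESeq2 or limma-voom, and 0 had an unadjusted p under 0.05, where 0% of all 16383 genes were called and 3.53% had such a p. DESeq2 called 6 genes in the whole table and limma-voom 3. The log2 fold changes of the members were all above 0, from 0.08 ± 0.17 for mt-Tm to 0.35 ± 0.17 for mt-Tw, with adjusted p from 0.871 to 0.915. Without rHCI 1 and rHCI 13, mt-Tm (−0.10), mt-Atp8 (−0.034) and mt-Tp (−0.13) were below 0, and without rHCI 13 alone mt-Tm was (−0.0068). mt-Co3 changed by 0.26 ± 0.12, with a 95% interval of −0.01 to 0.54. For mt-Co1 the interval of the difference was −0.18 to 0.51 on the log2 scale. mt-Co1 was at 41854, 31834, 39916, 44778 and 51036 CPM in rHCI 1, 3, 7, 11 and 13, with rHCI 3 below and rHCI 13 above every PBS library. The median of 0.21 over the members fell to 0.05 without rHCI 1 and rHCI 13. Other exclusions raised the changes. With 1 library left out at a time, mt-Co1 ran from 0.09 to 0.25 and mt-Rnr2 from 0.17 to 0.37.

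Sham 19 and rHCI 1 shared a run number of their own. Each was the highest of its group in most of the 6 mRNAs inside the repeated stretch. mt-Co2, mt-Atp8, mt-Atp6, mt-Nd3 and mt-Nd4l were each highest within Sham in Sham 19 and highest within rHCI in rHCI 1, for example mt-Co2 with 132 CPM in Sham 19 against 98.3 to 122 in the other Sham libraries, and with 98.95 CPM in rHCI 1 against 57.6 to 78.3 in the other rHCI libraries. The sixth, mt-Co3, did not follow this and was at 290 CPM in Sham 19 and 210 CPM in rHCI 1. The lead was small for mt-Nd3, at 18.9 CPM in Sham 19 against 18.4 in Sham 20. In rHCI 1 mt-Nd3 was at 12.9 CPM against 12.5 in rHCI 13. The 6 took 0.308% of mRNA counts in Sham 19 and 0.349% in rHCI 1, the highest of their groups, with rHCI 3 of the shared run number next at 0.310%. The 7 chromosome 1 copies summed to 0.216 counts per 100 mitochondrial counts in Sham 19, 0.228 in rHCI 1 and 0.201 in rHCI 3, and to 0.166 to 0.194 in the other libraries. The PBS group had no such library, and the part of the run in these levels was not tested.

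The nuclear genes listed for the same respiratory complexes also fell. Of all genes tested 34.9% were lower in PBS against Sham, with a median log2 fold change of −0.01. In rHCI against Sham 29.7% of all genes were lower, with a median of 0.00, and in rHCI against PBS 0% were called. The complex IV list held Cox6a2, Cox7a1 and Cox8b and left out the other forms Cox6a1, Cox8a and Cox4i2. The complex V list counted the inhibitor Atpif1 with the subunits. In PBS against Sham, 36 of 36 nuclear complex I genes were lower (median log2 fold change −0.67), as were 9 of 9 of complex III (−0.63), 12 of 12 of complex IV (−0.73) and 15 of 15 of complex V (−0.69). The medians of the mitochondrial genes were −0.84 for 7 genes of complex I, −0.77 for mt-Cytb of complex III, −0.89 for 3 genes of complex IV and −0.80 for 2 of complex V. Of these mitochondrial genes, mt-Co2, mt-Co3, mt-Atp6, mt-Atp8, mt-Nd3 and mt-Nd4l lie wholly inside the stretch repeated on chromosome 1. Their levels are uncertain, and so are the medians of complexes IV and V. mt-Co1, partly outside the stretch, was at −0.79. The difference between the 2 genomes was not tested. Among nuclear genes, Ndufv1, which binds the NADH of complex I, was at 909 ± 50.2 CPM in Sham and 505 ± 52.3 CPM in PBS hearts (−0.85 ± 0.07). Uqcrc1 of complex III changed by −0.73 ± 0.07, and Atp5c1, the gamma subunit of ATP synthase, by −0.76 ± 0.07. Among the listed nuclear genes of complex IV, Cox7a1 and Cox6a2 had the largest falls with −1.003 ± 0.10 and −0.90 ± 0.10. They are the heart and muscle forms of their subunits. Complex II has no mitochondrial gene, and 4 of its 4 genes were lower (−0.75), with Sdha at −0.89 ± 0.08. In rHCI against Sham the same counts were 36, 9, 12, 14 of 15 and 4, where Atpif1, an inhibitor of ATP synthase, was the one not called (−0.13 ± 0.07), and in rHCI against PBS 0 were called, with medians between 0.12 and 0.15.

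Counts of both genomes were also set against each other within each library. The 13 mRNAs had 3.64 ± 0.252 counts per count of the 72 nuclear subunit genes in Sham, 3.38 ± 0.156 in PBS and 3.47 ± 0.171 in rHCI hearts, and the 3 groups overlapped. Those nuclear genes took 5.05% ± 0.143 of nuclear counts in Sham, 3.53% ± 0.257 in PBS and 3.78% ± 0.442 in rHCI hearts.

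**Figure D5:**
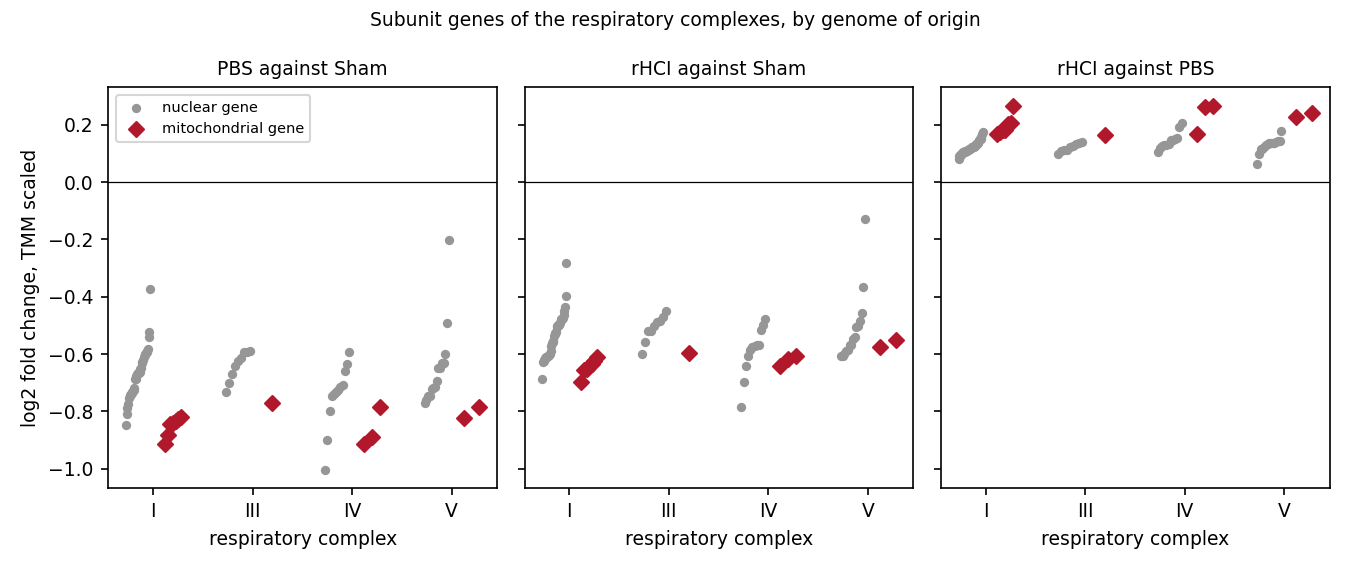
Log2 fold change of each gene listed for respiratory complexes I, III, IV and V (y axis, n = 5 libraries per group) in 3 comparisons. Grey points are nuclear genes and red diamonds are mitochondrial genes. Of the latter, mt-Co2, mt-Co3, mt-Atp6, mt-Atp8, mt-Nd3 and mt-Nd4l lie wholly inside the stretch repeated on chromosome 1 and have uncertain levels. Both genomes lie below 0 against Sham in all 4 complexes and above 0 in rHCI against PBS, where no gene was called.

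Nuclear genes that serve mitochondrial DNA and RNA were counted by list, against the 34.9% of all genes that were lower and the 36.5% that were higher in this comparison. Of 19 genes of transcription, replication and packaging, 14 were lower and 1 higher in PBS than in Sham hearts (median −0.40). The one higher was Primpol, a primase-polymerase, with 0.85 ± 0.11, which the naming rule would not have picked. Tfam, which packages mitochondrial DNA and activates its promoters, was at 49.7 ± 2.69 CPM in Sham, 37.9 ± 1.79 in PBS and 40.1 ± 3.23 in rHCI hearts (PBS against Sham −0.39 ± 0.05, adjusted p = 1.42e-05). Polrmt, the mitochondrial RNA polymerase, changed by −0.45 ± 0.07 and Tfb2m, its initiation factor, by −0.66 ± 0.06. Tefm, the elongation factor, changed by −0.63 ± 0.08 and Mgme1, a nuclease of mitochondrial DNA replication, by −0.70 ± 0.07. By library totals these changes were smaller, with −0.12 for Tfam, −0.17 for Polrmt, −0.38 for Tfb2m, −0.35 for Tefm and −0.43 for Mgme1.

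Of 20 tested genes of RNA cleavage, tailing, stability and decay, 17 were lower and 1 higher (median −0.39). Lrpprc, which binds and stabilises mitochondrial mRNAs, went from 276 ± 7.71 CPM in Sham to 161 ± 21.9 in PBS and 175 ± 28.2 in rHCI hearts (PBS against Sham −0.78 ± 0.08, adjusted p = 1.14e-06). Its partner Slirp changed by −0.34 ± 0.06, Hsd17b10, a subunit of the nuclease that cuts the 5′ ends of tRNAs, by −0.80 ± 0.08, and Fastkd1 by −0.70 ± 0.07. Mtpap, the poly(A) polymerase of these mRNAs, changed by −0.15 ± 0.05 with TMM factors and by 0.12 with library totals. With library totals Slirp changed by −0.07, Lrpprc by −0.51, Hsd17b10 by −0.53 and Fastkd1 by −0.43. Rexo2, which degrades short RNA, was the 1 that rose (0.21 ± 0.04). Of 20 genes of rRNA and tRNA modification 16 were lower and 0 higher (median −0.43), led by Trmt5 (−0.94 ± 0.10), Tfb1m (−0.63 ± 0.07), which methylates the 12S rRNA, and Rnmtl1 (−0.58 ± 0.08), a methyltransferase of the 16S rRNA.

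Of 12 regulators of mitochondrial gene expression in the nucleus 7 were lower and 3 higher (median −0.32). Ppara, a receptor that drives fatty acid oxidation genes, changed by −1.33 ± 0.11, the coactivator Ppargc1a by −0.76 ± 0.21, and the estrogen-related receptors Esrrg and Esrra by −0.75 ± 0.06 and −0.72 ± 0.07. Creb1 (0.28 ± 0.06), Pprc1 (0.24 ± 0.07) and Gabpb1 (0.16 ± 0.06) rose. By library totals, where 2614 of all 16207 genes were lower and 8934 higher, the lower and higher counts of these 4 lists became 10 and 3, 9 and 3, 7 and 3, and 4 and 5. In rHCI against Sham, where 29.7% of all genes were lower and 34.1% higher, they were 15 and 1, 15 and 1, 14 and 0, and 6 and 1, and in rHCI against PBS no gene of the 4 lists was called by edgeR.

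The same test was applied to cell type markers. Of all genes tested 34.9% were lower and 36.5% higher in PBS than in Sham hearts. The 10 cardiomyocyte markers summed to 78300 to 88660 CPM in Sham, 42520 to 60108 in PBS and 44392 to 65253 in rHCI libraries, with 9 of 10 lower in PBS than in Sham hearts, all but Actc1. The 13 mitochondrial mRNAs had 1.83 to 2.24 counts per count of these markers in Sham, 1.91 to 2.13 in PBS and 1.87 to 2.13 in rHCI libraries, so that the groups overlapped on this measure. The 8 fibroblast markers summed to 1139 to 1436 CPM in Sham, 14360 to 21060 in PBS and 13121 to 21334 in rHCI libraries, and 8 of 8 were higher in PBS hearts. The 8 macrophage markers summed to 211 to 259, 737 to 989 and 729 to 920 CPM, again with 8 of 8 higher. Of the lymphocyte and neutrophil markers 7 of 8 were higher, with sums of 1.52 to 3.98, 7.87 to 18.3 and 7.03 to 13.9 CPM. Atrial muscle markers, 3 of 4 tested and all 3 higher, summed to 4.53 to 33.99, 57.6 to 149 and 61.1 to 367 CPM, the last in rHCI 1. Of the smooth muscle and pericyte markers 3 of 6 were lower and 1 higher, and of the endothelial markers 5 of 8 were higher. The smooth muscle and pericyte sums were 1504 to 1725, 1249 to 1458 and 1261 to 1475 CPM, with Sham apart from both other groups. The endothelial sums were 822 to 940, 919 to 1061 and 855 to 1107 CPM and overlapped. Of 6 skeletal muscle markers 3 were tested and all 3 were higher in PBS than in Sham hearts, with sums of at most 48.7 CPM in any library. Of 5 brown fat markers 4 were tested and 2 were lower, although their median log2 fold change was 0.27, and by library totals no brown fat marker passed the edgeR threshold. Brown fat markers summed to at most 509 CPM. The 6 erythroid markers had log2 fold changes of 0.032 to 0.55, and none passed the edgeR threshold. No gene of these lists was at 0 throughout, and the part of cell composition in the mitochondrial values was not tested.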

How the data were processed

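Messenger RNA of the left ventricle was sequenced in 15 libraries with a stranded kit, per the labels' protocols. The authors deposited raw read counts per gene for all libraries in 1 table, with 0 unmatched columns. GRCm38 and mm10, and the tools Trimmomatic, STAR, Cufflinks and edgeR, stand in the submitters' processing notes. Not given in the sources used here are the read counter, its strand setting and its treatment of reads that fit several places. Groups came from sample titles.

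Each pair of groups was fitted on its 10 libraries over all genes with edgeR 4.0.16 in R 4.3.3 (TMM, filterByExpr, glmQLFTest, two-sided, Benjamini-Hochberg, 0.05). A second fit used summed mitochondrial counts as offset. Log2 fold changes carry standard errors and group values are mean ± SD, and floors cover counting error only. The fits were tested on simulated data in which far fewer genes changed than were called against Sham. That test cannot show how the scaling behaves in those comparisons. Alternatives were RLE factors, library totals, nuclear rows only, DESeq2 1.42.0, limma-voom (limma 3.58.1), other filters, sequencing run and left-out libraries. Near-identical nuclear copies (at least 99% identity over 100 bases) and gene positions come from GENCODE M21 transcripts of GRCm38, which hold 46488 of the 47069 identifiers. Named nuclear genes are up to 3 per list and direction with the largest change among those called at 5 CPM or more, plus Tfam, Polrmt, Tfb2m, Lrpprc, Slirp, Mtpap, Ppargc1a and Esrra. Not all of these are printed. Prorp, 1 of the 21 RNA processing genes, had no matching row. Members and lists were chosen with earlier results of these data known.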

Additional observations from a re-analysis of the deposited data

How the results depend on the processing

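Against Sham, 20 to 22 members were lower in every setting run except library totals in rHCI against Sham (18), and in rHCI against PBS the count was 0 in each. Leaving out 1 library gave 21 members in both comparisons with Sham. Relative to the mitochondrial total the counts were 4 to 5 in PBS and 3 to 4 in rHCI against Sham. The share differed by −5.61 to −5.00 percentage points in PBS against Sham, by −4.80 to −3.62 in rHCI against Sham and by 0.469 to 1.65 in rHCI against PBS. Ordered by length without a near-identical copy, 4 of 9 members kept their rank, a choice made after seeing the data. In rHCI against PBS, leaving out rHCI 1 and rHCI 13 turned mt-Atp8 to −0.034, mt-Tm to −0.10 and mt-Tp to −0.13, and mt-Tm ran from −0.0068 without rHCI 13 to 0.18 without PBS 14, all without a call in either setting. mt-Te was lower in PBS than Sham by limma-voom (−0.73). Of the changes relative to the mitochondrial total that were not called, 8 of 17 in PBS against Sham, 14 of 22 in rHCI against PBS and 10 of 18 in rHCI against Sham changed sign in some setting, with values between −0.06 and 0.12. In PBS against Sham 1 of the members not called was called in some setting. No paired analysis was possible because the groups share no replicate numbers. Counts of tRNA rows are low, and 6 rows at 0 set only an upper limit. For mt-Tg and mt-Tr that limit depends on how reads that fit several places were counted.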
